A study of Saccharomyces cerevisiae with 15 samples.

Results

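The late ergosterol pathway of budding yeast (Saccharomyces cerevisiae) was followed through 10 genes, taken in the order of the pathway: ERG11, ERG24, ERG25, ERG26, ERG27, ERG28, ERG6, ERG2, ERG3 and ERG5. They were chosen by name as the steps between lanosterol and the last reduction to ergosterol, with earlier results of these data known. All 10 were found among the 6659 genes of the table. RNA was measured by sequencing in 15 libraries from 11 genotypes of haploid BY4741/2 strains, all carrying the his-leu-ura- markers and grown in YPDextrose to an OD600 between 0.4 and 0.7. The xrn1, upf1 and htz1 deletions had 2 libraries each, numbered 1 and 2, and the wild type had libraries 1 and 3. A single library each came from the double deletions htz1 xrn1, swr1 xrn1, htz1 upf1 and swr1 upf1, from prp43 DAmP, from prp43 DAmP with htz1 deleted, and from the swr1 deletion.

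HTZ1 encodes the histone variant H2A.Z, and SWR1 the remodeller that places it in nucleosomes. XRN1 encodes the main cytoplasmic exonuclease of mRNA decay, and UPF1, which the table lists under its other name NAM7, encodes a helicase needed to destroy mRNAs with early stop codons. PRP43 encodes a helicase that takes apart spent spliceosomes and acts in ribosome assembly. A DAmP allele disturbs the end of the mRNA so that less of it accumulates, and it therefore lowers PRP43 without removing it. PRP43 stood at 42.7 RPKM (reads scaled for gene length and library size) in the prp43 DAmP library and 55.4 RPKM in prp43 DAmP htz1, against 84.8 to 157 RPKM in the other 13 libraries. The deleted gene was at most 0.29 RPKM in every library labelled with its deletion.

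Ergosterol is the main sterol of fungal membranes and does there what cholesterol does in animal cells. Its early pathway builds the squalene backbone and closes it to lanosterol. The late enzymes, most of them in the endoplasmic reticulum, then remove methyl groups from the rings, add one to the side chain and move or add double bonds. Several of these steps need oxygen and heme, and Erg11 is the target of azole antifungal drugs. The related zinc cluster factors Upc2 and Ecm22 bind sterol regulatory elements in promoters of the pathway and raise transcription when sterol is short.

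In the R64 annotation (the same build as sacCer3) each of the 10 genes has 1 exon, and none overlaps another annotated gene. In the order of the pathway, ERG11 (YHR007C) lies at chrVIII:120091-121683, ERG24 (YNL280C) at chrXIV:109095-110411, ERG25 (YGR060W) at chrVII:610564-611493 and ERG26 (YGL001C) at chrVII:495453-496502. ERG27 (YLR100W) lies at chrXII:341810-342853, ERG28 (YER044C) at chrV:237570-238016 and ERG6 (YML008C) at chrXIII:251839-252990. ERG2 (YMR202W) lies at chrXIII:667537-668205, ERG3 (YLR056W) at chrXII:253861-254958 and ERG5 (YMR015C) at chrXIII:300869-302485. The genes are scattered, and the closest to one another share only a chromosome.

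The DNA before 3 of them, ERG28, ERG2 and ERG3, holds the letters TCGTATA, the core of the sterol regulatory element, within 300 bases of the start codon on either strand. The stretch from 300 to 151 bases before the start codon is shown for these 3 genes and for ERG25, which does not hold those letters. The 3 had the smallest limma p-values among the 10 in the prp43 DAmP library. By size ERG25 (2.32 ± 0.33, log2 with SE) rose there about as much as ERG2 (2.23 ± 0.28). A link of the motif to the rise was not tested. Sequences are from the R64 RefSeq genome, read 5′ to 3′ on the strand of the gene, and capitals mark the motif.
ERG28 (chrV:238167-238316, minus strand): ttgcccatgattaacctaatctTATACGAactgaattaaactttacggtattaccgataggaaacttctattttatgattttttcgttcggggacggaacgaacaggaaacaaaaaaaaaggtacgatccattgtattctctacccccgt
ERG2 (chrXIII:667237-667386, plus strand): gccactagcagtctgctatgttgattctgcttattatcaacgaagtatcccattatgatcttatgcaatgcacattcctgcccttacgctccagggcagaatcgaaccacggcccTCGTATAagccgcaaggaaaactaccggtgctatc
ERG3 (chrXII:253561-253710, plus strand): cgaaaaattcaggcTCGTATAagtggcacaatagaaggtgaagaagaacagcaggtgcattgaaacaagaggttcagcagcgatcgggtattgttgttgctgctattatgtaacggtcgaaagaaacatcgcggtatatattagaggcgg
ERG25 (chrVII:610264-610413, plus strand): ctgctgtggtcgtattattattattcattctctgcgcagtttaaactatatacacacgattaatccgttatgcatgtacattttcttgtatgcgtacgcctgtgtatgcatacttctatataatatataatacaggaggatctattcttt
In ERG28 the motif lies on the opposite strand, so its reverse complement TATACGA is in capitals, 272 to 278 bases before the start codon. It lies 179 to 185 bases before ERG2 and 280 to 286 bases before ERG3 on the strand of the gene. Of all 6001 windows of that length before protein-coding genes, 4.62% held TCGTATA on either strand, against 3 of these 10. It was also before 2 of 12 early genes of the pathway. Of 5 partners of the late genes (ERG4, ERG29, NCP1, CYB5 and DAP1), 1 held it. The differences between these shares were not tested. ATTGTT, the core bound by Rox1, was before 3 of the 10 (ERG26, ERG3 and ERG5) and in 34.1% of all windows.

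Levels per length differed among the 10 genes. In the wild type, ERG11 averaged 338 ± 15.2 RPKM (SD, n = 2 libraries) and ERG25 335 ± 15.6 RPKM, which did not differ beyond that spread. ERG6 at 254 ± 2.92, ERG3 at 252 ± 20.3 and ERG2 at 245 ± 23.3 RPKM followed and were likewise within their spread of each other. ERG27 stood at 113 ± 1.34 RPKM. The lowest 4 were ERG5 at 69.3 ± 11.9, ERG26 at 67.2 ± 7.85, ERG24 at 54.8 ± 3.51 and ERG28 at 47.2 ± 1.04 RPKM. The wild-type libraries differed by 1.02-fold (ERG27) to 1.28-fold (ERG5). At the lowest, ERG28 in swr1 upf1, a value still rested on 135 reads.

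**Figure D1:**
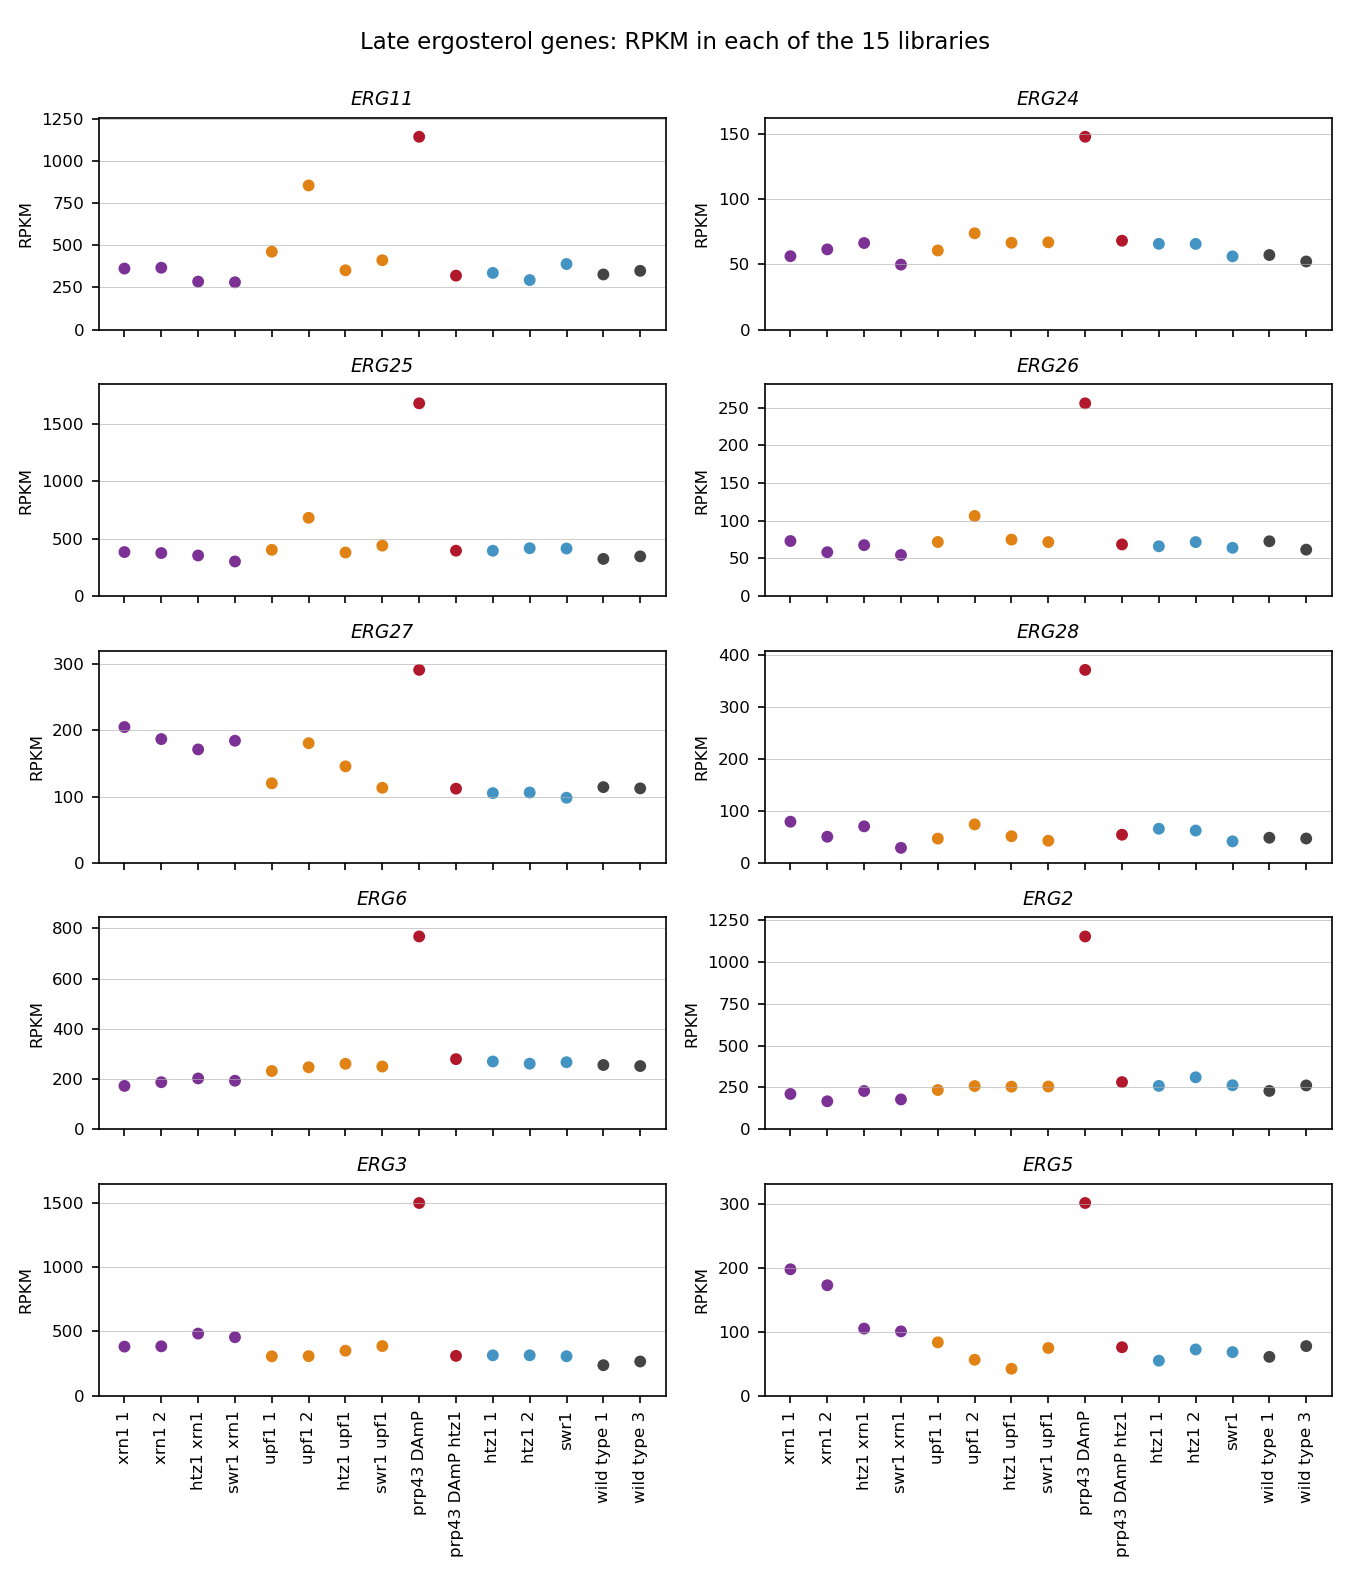
RPKM of each of the 10 late ergosterol genes (vertical axes, linear, from 0) in each of the 15 libraries; 1 point is 1 library, coloured by xrn1 (purple), upf1 (orange), prp43 DAmP (red), htz1 and swr1 (blue) and wild type (grey). The prp43 DAmP library is the highest of the 15 for all 10 genes, and prp43 DAmP htz1 lies among the others.

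The libraries also differed in ways that the genotypes do not name. Library totals recovered from the values ranged from 7160164 reads in swr1 upf1 to 57373644 reads in prp43 DAmP, the deepest. In 4 libraries (swr1 xrn1, swr1 upf1, swr1 and wild type 1) the 4 MATalpha genes summed to 3364 to 3760 RPKM, against 15.2 to 109 RPKM in the other 11. The 7 MATa genes summed to 8.66 to 42.8 RPKM in those 4 and to 616 to 2099 RPKM in the other 11, so the libraries come from both mating types, and the swr1 deletion cannot be told apart from mating type in most contrasts. Reading frames of the ribosomal DNA repeat held 12.1 to 21.2% of the summed RPKM in 5 libraries (swr1 xrn1, htz1 upf1, swr1 upf1, htz1 1 and swr1), against 0.019 to 3.41% in the other 10. The labels do not state whether the replicates are separate cultures. The p-values therefore reflect the spread among these libraries alone, and that spread may be technical. The prp43 DAmP, prp43 DAmP htz1, htz1 and wild type 3 libraries were all among the 11 with high MATa genes. YLR154W-E, a frame of the ribosomal DNA repeat, had 2777 to 3781 RPKM in prp43 DAmP, prp43 DAmP htz1, htz1 2 and wild type 3. It had at most 552 RPKM in the other libraries, wild type 1 included.

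The most marked pattern was in the single prp43 DAmP library with HTZ1 intact. All 10 genes had their highest value of the 15 libraries there, which held for 1.71% of the 6495 genes tested. It was not particular to the late genes. Most early genes of the pathway, named below, were also highest there, as were ERG4, NCP1 and CYB5, but not ERG29 or DAP1. For 6 of the 10 (ERG25, ERG26, ERG28, ERG6, ERG2 and ERG3) RPKM + 1 was at least 2-fold above every other library, which held for 0.308% of genes. The early gene ERG10 and the partner CYB5 reached that mark as well. The 10 were chosen with earlier results of these data known, so these shares are no independent test of them. Together the 10 took 0.745% of the summed RPKM in prp43 DAmP, against 0.185% in prp43 DAmP htz1 and 0.178 to 0.18% in the wild type.

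The first step, ERG11, the cytochrome P450 that demethylates lanosterol, had 1143 RPKM in prp43 DAmP, against 320 RPKM in prp43 DAmP htz1, 336 and 294 RPKM in htz1 libraries 1 and 2, and 327 and 348 RPKM in wild-type libraries 1 and 3. ERG24, the sterol reductase that acts next, had 148 RPKM in prp43 DAmP, against 68.3 RPKM in prp43 DAmP htz1, 65.9 and 65.8 RPKM in htz1, and 57.3 and 52.3 RPKM in the wild type. For both genes the prp43 DAmP library lay above all 5 of these others, which lay close together.

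The next 4 genes encode the complex that removes the ring methyl groups. ERG25, the methyl oxidase, had 1679 RPKM in prp43 DAmP, against 396 RPKM in prp43 DAmP htz1, 395 and 417 RPKM in htz1, and 324 and 346 RPKM in the wild type. ERG26, the decarboxylase, had 256 RPKM in prp43 DAmP, against 68.6 RPKM in prp43 DAmP htz1, 66.2 and 71.7 RPKM in htz1, and 72.8 and 61.7 RPKM in the wild type. Both were thus high in 1 library of these 6, with no overlap. ERG27, the keto reductase, had 292 RPKM in prp43 DAmP, against 112 RPKM in prp43 DAmP htz1, 105 and 106 RPKM in htz1, and 114 and 112 RPKM in the wild type. ERG28, a membrane protein that holds the other three together, had 371 RPKM in prp43 DAmP, against 53.7 RPKM in prp43 DAmP htz1, 65.2 and 61.8 RPKM in htz1, and 47.9 and 46.5 RPKM in the wild type. ERG28 was the gene of the 10 that stood farthest above the next library, by 4.71-fold, and ERG27 was only 1.42-fold above its next library, xrn1 1.

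The last 4 genes act on the side chain and the double bonds. ERG6, the methyltransferase of the side chain, had 768 RPKM in prp43 DAmP, against 279 RPKM in prp43 DAmP htz1, 270 and 261 RPKM in htz1, and 256 and 252 RPKM in the wild type. ERG2, the sterol isomerase, had 1152 RPKM in prp43 DAmP, against 282 RPKM in prp43 DAmP htz1, 259 and 310 RPKM in htz1, and 229 and 262 RPKM in the wild type. Neither gene overlapped between prp43 DAmP and the others. ERG3, the ring desaturase, had 1498 RPKM in prp43 DAmP, against 310 RPKM in prp43 DAmP htz1, 314 and 315 RPKM in htz1, and 238 and 266 RPKM in the wild type. ERG5, the cytochrome P450 that desaturates the side chain, had 302 RPKM in prp43 DAmP, against 76.0 RPKM in prp43 DAmP htz1, 55.0 and 72.5 RPKM in htz1, and 60.9 and 77.8 RPKM in the wild type. In each of these 4 genes prp43 DAmP htz1 lay near the htz1 and wild-type libraries and far below prp43 DAmP.

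Tested against the wild type with limma on log2(RPKM + 1), 7 of the 10 genes rose in prp43 DAmP at an adjusted p under 0.05, where 0.431% of all genes tested were called, each of them higher. The change was 2.95 ± 0.36 (log2, SE) for ERG28, 2.57 ± 0.24 for ERG3, 2.32 ± 0.33 for ERG25 and 2.23 ± 0.28 for ERG2. It was 2.12 ± 0.33 for ERG5, 1.92 ± 0.31 for ERG26 and 1.59 ± 0.24 for ERG6. The limma adjusted p-values of these 7 ran from 0.00288 (ERG3) to 0.0395 (ERG26). ERG11 at 1.76 ± 0.36, ERG24 at 1.42 ± 0.26 and ERG27 at 1.36 ± 0.29 did not pass, with limma adjusted p-values of 0.129, 0.0731 and 0.178. The median was 2.02 over the 10 genes and -0.12 over all genes, and scaling each library to a common median moved the latter value to 0.02. With the scaling the median of the 10 was 2.15. Relative to the unscaled median of all genes, the 10 were higher by 1.47 (ERG27) to 3.06 (ERG28). This comparison sets 1 library against 2, and its error comes from the 4 genotypes with replicates, so the lone library is assumed to vary as they do. The number of the 10 called was 4 with no filter on low genes and 2 with the scaling, and it ran from 2 to 8 when single libraries were left out: leaving out wild type 1 gave 2, wild type 3 gave 3, and either xrn1 library gave 4.

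No early gene of the pathway passed in the same library. The 12 early genes were ERG10, ERG13, HMG1, HMG2, ERG12, ERG8, MVD1, IDI1, ERG20, ERG9, ERG1 and ERG7. All but HMG2, IDI1 and ERG7 had their highest value of the 15 libraries in prp43 DAmP. Of these, 0 passed the test in prp43 DAmP and 9 had an unadjusted p under 0.05, where 255 of the 6495 genes did. The median change of the early genes was 0.89. Named after their values were seen, the highest were ERG1, the squalene epoxidase, at 1.68 ± 0.37 and ERG9, squalene synthase, at 1.39 ± 0.27. HMG2 at -0.39 ± 0.37 and IDI1 at -0.41 ± 0.30 were the early genes below 0. ERG4, whose enzyme makes the last reduction to ergosterol, had 503 RPKM in prp43 DAmP, against 226 RPKM in prp43 DAmP htz1 and 172 and 187 RPKM in the wild type, and a change of 1.48 ± 0.36 (limma adjusted p = 0.249). Among electron donors and helpers of the late enzymes, CYB5, cytochrome b5, rose by 2.12 ± 0.28 (limma adjusted p = 0.0129). NCP1, the reductase that serves Erg11 and Erg5, had 338 RPKM in prp43 DAmP, against 130 RPKM in prp43 DAmP htz1 and 134 and 122 RPKM in the wild type, and a change of 1.39 ± 0.29 that did not pass (limma adjusted p = 0.154). ERG29 and DAP1 did not pass either. The difference between the early and the late genes was not tested.

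**Figure D2:**
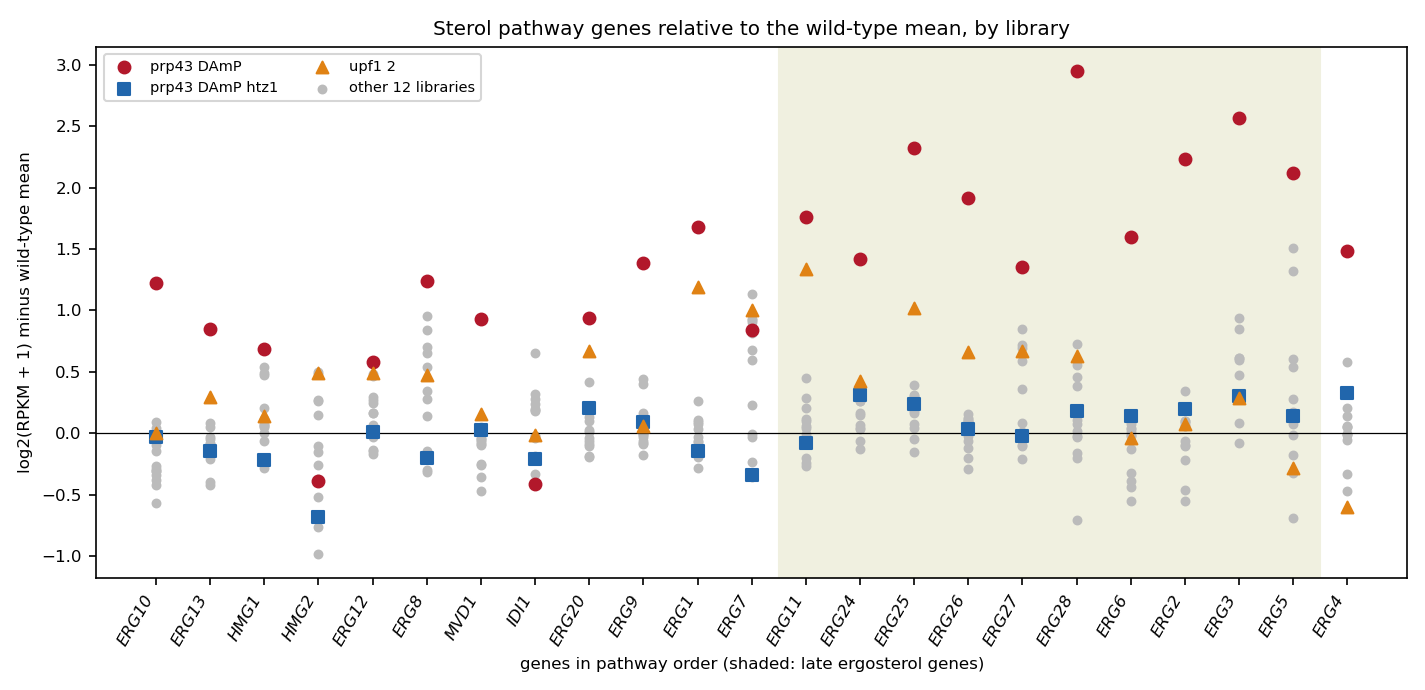
Level of each sterol pathway gene relative to the wild-type mean, as a difference of log2(RPKM + 1) (vertical axis), with genes in pathway order; each point is 1 library and the shaded block holds the 10 late genes. In the late block prp43 DAmP (red circles) lies between 1.36 and 2.95, while prp43 DAmP htz1 (blue squares) lies near 0 and upf1 2 (orange triangles) is raised for part of the block.

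No regulator of the pathway passed in prp43 DAmP. UPC2 had 89.6 RPKM there, against 20.3 RPKM in prp43 DAmP htz1 and 27.3 and 18.3 RPKM in the wild type, and a change of 1.95 ± 0.62 that did not pass (limma adjusted p = 0.731). ECM22, its paralogue, had 10.1 RPKM, against 17.4 RPKM in prp43 DAmP htz1 and 24.5 and 17.4 RPKM in the wild type, at a change of -0.96 ± 0.36 (limma adjusted p = 0.998). Of 5 regulators (with HAP1, ROX1 and MOT3) 0 passed and 2 had an unadjusted p under 0.05. None of 8 heme synthesis genes passed, with 1 at an unadjusted p under 0.05 and a median of -0.05, and none of 7 genes of sterol uptake and sterol ester turnover passed, with 3 at an unadjusted p under 0.05 and a median of 0.72.

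Of 8 genes known from low oxygen, 2 passed, both higher: DAN1, a cell wall mannoprotein made in low oxygen, by 6.70 ± 0.62 and TIR1, a related mannoprotein, by 4.67 ± 0.44 (limma adjusted p = 0.00288 for each). TIR1 had 4410 RPKM in prp43 DAmP, against 209 RPKM in prp43 DAmP htz1 and 160 and 184 RPKM in the wild type. The median of those 8 genes was -0.35, and OLE1, the fatty acid desaturase, also named after its values were seen, had 304 RPKM in prp43 DAmP, against 310 RPKM in prp43 DAmP htz1 and 1357 and 790 RPKM in the wild type. Of the 28 genes called, 21 were not among the 10, and CYB5 was among these 21. Named after their values were seen, PBI1 at 5.95 ± 0.36 had the smallest adjusted p of all, and DAN4, TIR3, PAU2 and HES1, a gene of the oxysterol-binding family, were also among them. All 28 were lower in prp43 DAmP htz1 than in prp43 DAmP. They had been picked for high values in prp43 DAmP, which favours lower values elsewhere, so this count is no separate result. PRP43 itself stood at 42.7 RPKM in prp43 DAmP and 55.4 RPKM in prp43 DAmP htz1, and the part of that level in the result was not tested.

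With HTZ1 deleted, the strain with the same DAmP allele did not have the higher values. The difference between prp43 DAmP htz1 and htz1 lay between -0.24 (ERG28) and 0.26 (ERG5) for the 10 genes, with a median of 0.01, and the median of all genes was -0.04. The test of the difference itself was the interaction of htz1 with prp43 DAmP. It was negative for all 10, from -3.18 ± 0.51 (ERG28) to -1.27 ± 0.42 (ERG27). The prp43 DAmP library enters it with a minus sign, so this direction repeats the high values there. All 10 had an unadjusted p under 0.05, as did 118 of the 6495 genes. After adjustment 1 of the 10 passed, ERG3 at -2.59 ± 0.35 (limma adjusted p = 0.0387), where 0.154% of all genes were called. DAN1 (-7.25 ± 0.88) and TIR1 (-5.03 ± 0.62) of the low oxygen genes were called as well. ERG28 had a limma adjusted p of 0.0615 and ERG2, at -2.24 ± 0.39, one of 0.111. None of the 10 was called with a pseudocount of 0.1, with no filter, with the scaling or without the libraries rich in ribosomal DNA. The same held when any xrn1, upf1 or htz1 replicate or wild type 1 was left out. With a pseudocount of 5, 2 of the 10 were called. The interaction rests on 1 library of each prp43 genotype, so a difference between these cultures and a difference between the genotypes cannot be told apart. Averaged over both HTZ1 states, 0 of the 10 passed and 9 of them had an unadjusted p under 0.05, where limma called 0% of all genes and 156 genes were under that unadjusted p. The median of the 10 was then 1.03. Without prp43 DAmP htz1, 6 of the 10 were called, and without htz1 2, 1 was.

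**Figure D3:**
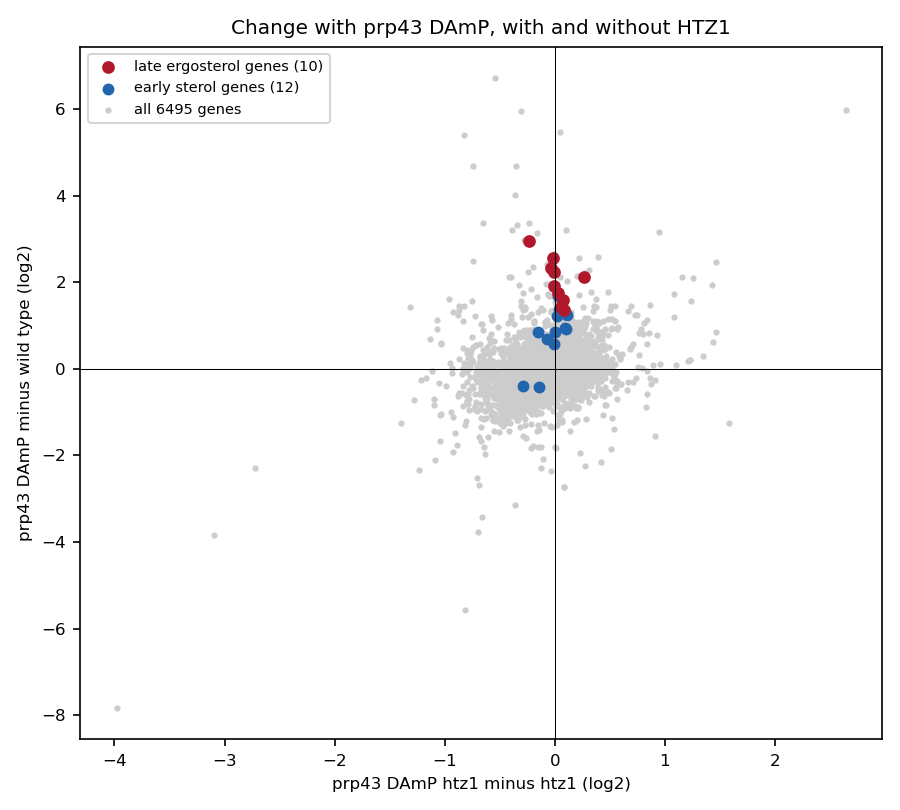
Change with the prp43 DAmP allele in log2(RPKM + 1), with HTZ1 present (prp43 DAmP minus wild type, vertical axis) and with HTZ1 deleted (prp43 DAmP htz1 minus htz1, horizontal axis); each point is 1 gene, with the 10 late genes in red and 12 early sterol genes in blue. The late genes stand between 1.36 and 2.95 on the vertical axis and between -0.24 and 0.26 on the horizontal axis.

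In the libraries without XRN1, 3 late genes were higher, 2 were lower and 5 did not pass, while most genes of the table were higher. Over 3 H2A.Z states (xrn1, htz1 xrn1 and swr1 xrn1 against the wild type, htz1 and swr1; 4 libraries against 5), the median of all genes was 0.99, so values are also given relative to it; scaling each library to a common median moved it to 0.04. The median of the 10 late genes was -0.03, and 9 of the 10 lay below the median of all genes, 7 of them by more than 0.8. With values as deposited, 5 of the 10 were called, where 81.3% of genes were: 3 were higher, against 74.1% of genes, and 2 were lower, against 7.19% of genes. With the scaling, 0 were called higher and 7 lower, where 31.1% and 29% of genes were called. The comparisons here share the wild-type, htz1 and swr1 libraries and are not independent of each other. The 4 libraries did not overlap the 5 for 5 of the 10 genes, 3 higher and 2 lower, and over all genes for 63.2% higher and 5.14% lower.

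ERG27 had 205, 187, 171 and 184 RPKM in xrn1 1, xrn1 2, htz1 xrn1 and swr1 xrn1, against 105, 106, 98.2, 114 and 112 RPKM in htz1 1, htz1 2, swr1, wild type 1 and wild type 3. In the same order, ERG3 had 382, 384, 483 and 455 RPKM in the xrn1 libraries, against 314, 315, 307, 238 and 266 RPKM in the others. ERG5 had 198, 173, 105 and 101 RPKM in the xrn1 libraries, against 55.0, 72.5, 68.4, 60.9 and 77.8 RPKM in the others. For these 3 genes every xrn1 library was above every library with XRN1, and ERG5 was higher in the xrn1 single deletions than in the double deletions. As deposited they rose by 0.78 ± 0.11, 0.60 ± 0.11 and 1.00 ± 0.19 (limma adjusted p = 0.000114, 0.000539 and 0.000682). Relative to the median of all genes the differences were -0.21 for ERG27, -0.39 for ERG3 and 0.01 for ERG5, and with the scaling ERG27 at -0.17 and ERG3 at -0.35 turned negative and none of the 3 was called.

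ERG6 and ERG2 went the other way. ERG6 had 173, 187, 202 and 193 RPKM in the xrn1 libraries, against 270, 261, 267, 256 and 252 RPKM in the others, in the order above. ERG2 had 211, 167, 228 and 178 RPKM in the xrn1 libraries, against 259, 310, 263, 229 and 262 RPKM in the others. All 4 xrn1 libraries were below all 5 others for both genes, narrowly so for ERG2. As deposited ERG6 fell by 0.46 ± 0.11 (limma adjusted p = 0.00279) and ERG2 fell by 0.40 ± 0.13 (limma adjusted p = 0.0161), and relative to the median of all genes the differences were -1.45 and -1.40. The fall of ERG2 did not pass without xrn1 2, swr1 xrn1 or swr1, nor without the libraries rich in ribosomal DNA. In the additive model of all 15 libraries neither ERG2 nor ERG3 passed, and 3 of the 10 were called. The MATalpha libraries swr1 xrn1 and swr1 are among those compared above, so the lack of overlap already fixed their directions. They are 1 library against 1, and no separate test was made. ERG27 was at 184 RPKM in swr1 xrn1 and 98.2 RPKM in swr1. ERG3 and ERG5 were at 455 and 101 RPKM in swr1 xrn1, against 307 and 68.4 RPKM in swr1. ERG6 and ERG2 were at 193 and 178 RPKM in swr1 xrn1, against 267 and 263 RPKM in swr1.

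The other 5 genes did not pass as deposited. ERG11 had 280 to 367 RPKM in the xrn1 libraries and 294 to 389 RPKM in the others. ERG24 ranged over 49.9 to 66.5 RPKM in the xrn1 libraries and 52.3 to 65.9 RPKM in the others. For ERG25 the range was 302 to 384 RPKM in the xrn1 libraries and 324 to 417 RPKM in the others. These 3 overlapped widely. ERG26 had 54.6 to 73.1 RPKM in the xrn1 libraries and 61.7 to 72.8 RPKM in the others. For ERG28 the range was 28.5 to 78.7 RPKM in the xrn1 libraries and 41.0 to 65.2 RPKM in the others. All 5 overlapped, and ERG28 was both at its lowest (swr1 xrn1) and at 78.7 RPKM (xrn1 1) among the xrn1 libraries. Their changes lay between -0.10 ± 0.13 (ERG11) and 0.11 ± 0.19 (ERG28), and between -1.10 and -0.88 relative to the median of all genes. Against the wild type alone (2 libraries each), 3 of the 10 were called higher, ERG27, ERG3 and ERG5, and 0 lower, where 65% of genes were called, 60.8% higher and 4.14% lower. That count fell to 1 without xrn1 1, wild type 1 or wild type 3.

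**Figure D4:**
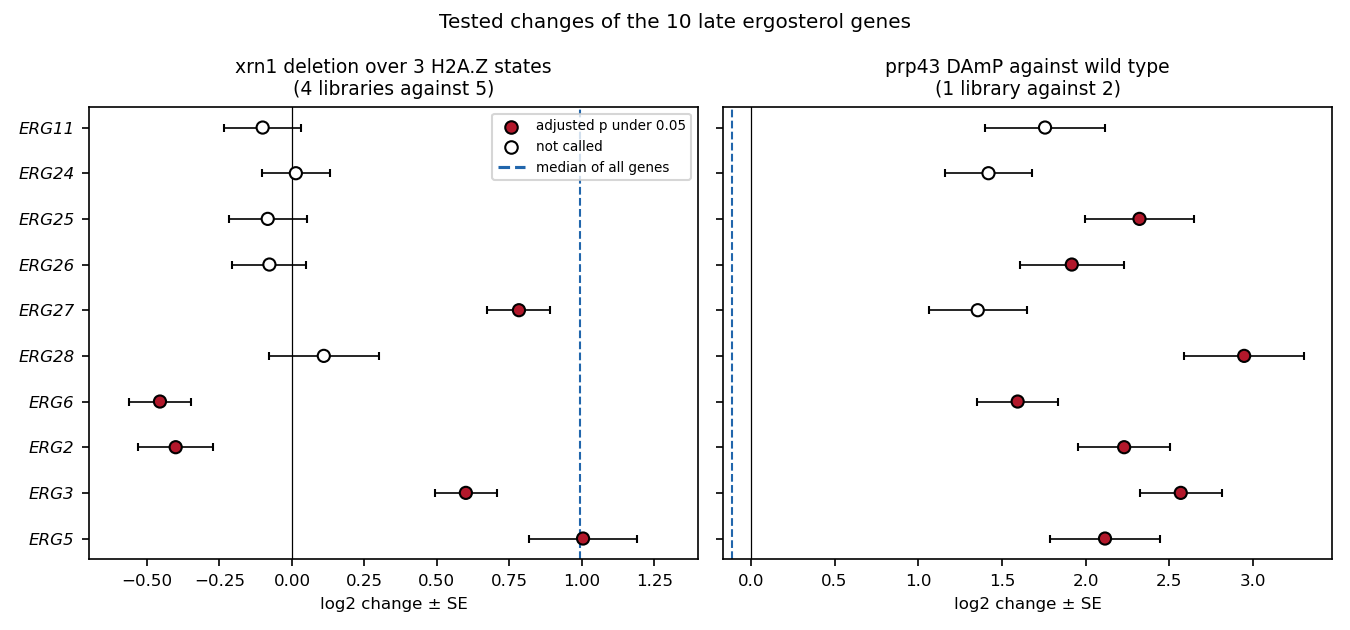
Log2 change ± SE of each of the 10 late genes for the xrn1 deletion over 3 H2A.Z states (left, 4 libraries against 5) and for prp43 DAmP against the wild type (right, 1 library against 2); filled points passed an adjusted p of 0.05 and the dashed line is the median of all genes. On the left ERG5 is the gene of the 10 at or above that median of 0.99, and on the right all 10 lie above a median of -0.12.

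Other sterol genes in the xrn1 libraries were mixed as well. Of the 12 early genes, 6 rose as deposited (HMG1, HMG2, ERG12, ERG8, IDI1 and ERG7), where 74.1% of all genes did. Another 2 fell (ERG10 and MVD1), where 7.19% of all genes did. Of the 12, 0 lay above the median of all genes. ERG8, phosphomevalonate kinase, changed by 0.91 ± 0.12 and MVD1, the decarboxylase after it, by -0.30 ± 0.11. ERG4 had 129 to 179 RPKM in the xrn1 libraries and 172 to 269 RPKM in the others, and its change of -0.32 ± 0.15 did not pass (limma adjusted p = 0.0812). NCP1 did not pass at -0.20 ± 0.18, while CYB5 (0.82 ± 0.15), ERG29 (1.30 ± 0.15) and DAP1, a heme-binding partner of Erg11 (1.60 ± 0.24), rose. CYB5 lay below the median of all genes, and ERG29 and DAP1 lay above it.

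As deposited all 5 regulators rose in the xrn1 libraries, where 74.1% of all genes did, and 3 of the 5 (UPC2, ROX1 and MOT3) lay above the median of all genes. UPC2 had 92.9, 111, 209 and 133 RPKM in xrn1 1, xrn1 2, htz1 xrn1 and swr1 xrn1, against 24.1, 18.5, 21.7, 27.3 and 18.3 RPKM in htz1 1, htz1 2, swr1, wild type 1 and wild type 3. Every xrn1 library was at least 3-fold above every other of this set. The change was 2.58 ± 0.22 (limma adjusted p = 1.04e-05), or 1.58 above the median of all genes. ECM22 had 30.2 to 51.6 RPKM in the xrn1 libraries and a median of 18.4 RPKM in the others, with no overlap, at a change of 0.89 ± 0.20, which is -0.10 relative to the median of all genes. Of 7 genes of sterol uptake and ester turnover and 8 of heme synthesis, 5 each were called, all higher as deposited, where 74.1% of all genes were. Above the median of all genes lay 2 of the 7 and 1 of the 8. The called genes were the sterol transporters AUS1 and PDR11, the sterol acyltransferase ARE2 and the sterol ester hydrolases YEH2 and TGL1, between 0.58 ± 0.18 (YEH2) and 1.79 ± 0.21 (PDR11), and HEM2, HEM3, HEM4, HEM12 and HEM15, between 0.28 ± 0.11 (HEM2) and 1.09 ± 0.15 (HEM4). Of the low oxygen genes CYC7 (1.83 ± 0.34), HMG2 (0.71 ± 0.16) and TIR1 (-1.69 ± 0.45) were called. ROX1, a repressor of genes for low oxygen, changed by 1.68 ± 0.14, MOT3 by 1.33 ± 0.21 and HAP1 by 0.67 ± 0.21, which is 0.68, 0.33 and -0.32 relative to the median of all genes. UPC2 was above 70 RPKM in 6 libraries, the 4 without XRN1, upf1 2 and prp43 DAmP, and the median of the late genes was 569 RPKM in prp43 DAmP, against 172 to 214 RPKM in the other 14.

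**Figure D5:**
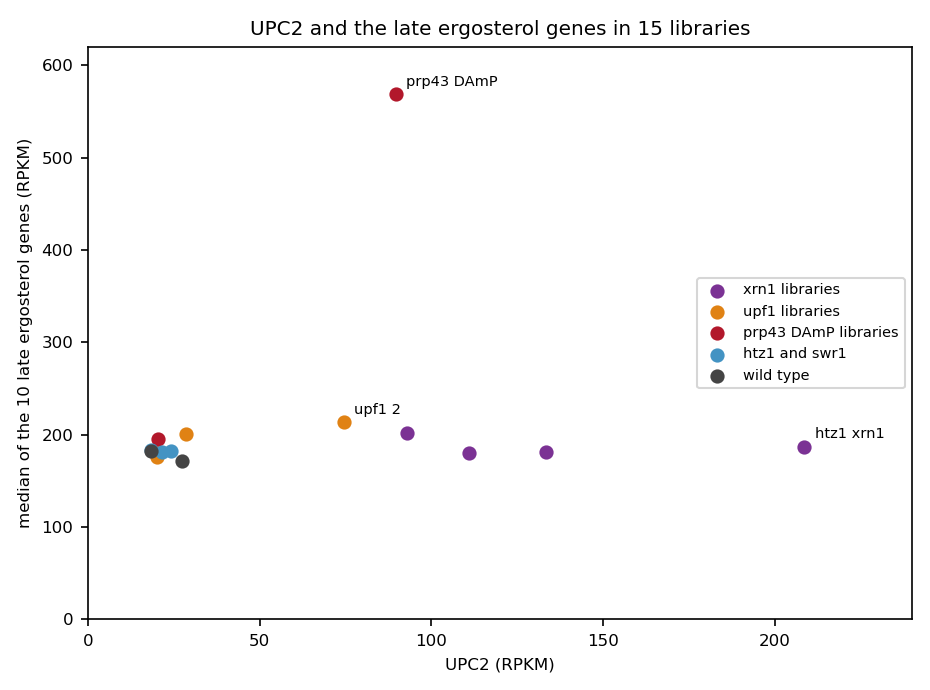
UPC2 level (horizontal axis, RPKM) and the median level of the 10 late ergosterol genes (vertical axis, RPKM) in each of the 15 libraries, coloured by genotype. The 4 xrn1 libraries lie between 92.9 and 209 RPKM of UPC2 with a median of the late genes of 180 to 202 RPKM, and prp43 DAmP lies at 89.6 RPKM of UPC2 and 569 RPKM.

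In the upf1 libraries none of the 10 passed, where 29.7% of genes were called, 28.8% higher and 0.847% lower (20.9% and 19.1% with the scaling). An unadjusted p under 0.05 was reached by 2 of the 10 and by 2507 of the 6495 genes. Over the same 3 H2A.Z states the changes lay between -0.15 ± 0.19 (ERG5) and 0.48 ± 0.22 (ERG11), with a median of 0.22 against 0.23 over all genes (-0.12 with the scaling). The count of the 10 called was 1 with no filter, with the scaling, and without the libraries rich in ribosomal DNA, and 0 to 1 when single libraries were left out (1 without upf1 1). Against the wild type alone it was 0, where 13.3% of genes were called, 13.2% higher and 0.0924% lower, and it ran from 0 to 2 (2 without upf1 1). Of the early genes, ERG8 at 0.54 ± 0.11 and ERG7, which closes the ring to lanosterol, at 1.05 ± 0.14 rose. ERG29 (0.55 ± 0.16), AUS1, PDR11 and YEH1 (0.82 ± 0.19 to 1.15 ± 0.27), HEM4 and HEM12 (1.05 ± 0.13 and 1.12 ± 0.12) and AAC3, a mitochondrial carrier of low oxygen (1.31 ± 0.19), rose too. UPC2 (0.45 ± 0.35) and ECM22 (0.34 ± 0.20) were not called.

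The upf1 replicates stood apart from each other in the earlier steps of the late pathway. ERG11 had 854 RPKM in upf1 2 and 462 RPKM in upf1 1, and ERG25 had 682 RPKM in upf1 2 and 403 RPKM in upf1 1. ERG24, ERG26, ERG27 and ERG28 had 74.0, 106, 181 and 73.6 RPKM in upf1 2, against 60.8, 71.8, 120 and 46.3 RPKM in upf1 1. All of these were higher in upf1 2. ERG6, ERG2 and ERG3 were nearly level, at 247, 258 and 308 RPKM in upf1 2 and 232, 234 and 307 RPKM in upf1 1. ERG5 was lower in upf1 2, at 56.4 RPKM, against 83.6 RPKM in upf1 1. For ERG11, ERG24, ERG25 and ERG26, upf1 2 was the second highest of the 15 libraries. ERG1, HEM13, a heme synthesis enzyme, and OLE1, named after their values were seen, had 648, 492 and 2649 RPKM in upf1 2, against 341, 64.5 and 297 RPKM in upf1 1. Other heme and low oxygen genes did not all follow: HEM1, HEM2, HEM4, TIR1 and COX5B were lower in upf1 2 than in upf1 1. The rest of those lists were higher there, DAN1 barely. HEM1 and HEM2 had 120 and 57.7 RPKM in upf1 2, against 135 and 76.9 RPKM in upf1 1. UPC2 had 74.4 RPKM in upf1 2 and 20.2 RPKM in upf1 1, and ERG4 had 118 RPKM in upf1 2 and 178 RPKM in upf1 1. These pairs are the 2 replicates of 1 genotype, and the part of these differences in the upf1 result was not tested beyond leaving out each library. No test compares upf1 2 with prp43 DAmP, in which all 10 genes were high.

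Loss of H2A.Z or of SWR1 left the 10 genes without a call. Averaged over 4 backgrounds (5 libraries without HTZ1 against 7), 0 of the 10 passed for htz1, where 1.92% of genes were called, 0.446% higher and 1.48% lower. All 10 changes were below 0, from -0.74 ± 0.23 (ERG5) to -0.06 ± 0.17 (ERG24), with a median of -0.34, against -0.02 over all genes. Without prp43 DAmP, or without prp43 DAmP htz1, the median of the 10 was 0.04 and ERG24 stood at 0.16. For swr1 over 3 backgrounds (3 libraries against 6) 0 of the 10 passed, where 4% of genes were called, 0.477% higher and 3.53% lower, with changes from -0.59 ± 0.22 (ERG28) to 0.29 ± 0.11 (ERG3). Between htz1 and swr1 over the same 3 backgrounds 0 of the 10 passed, where 0.4% of genes were called, with changes from -0.27 ± 0.20 (ERG5) to 0.71 ± 0.19 (ERG28). In each of these comparisons 1 or 2 of the 10 had an unadjusted p under 0.05. Of the 6495 genes, 1153, 1205 and 634 did, in the same order. Against the wild type alone, 0 of the 10 passed for htz1 or swr1, where 0.0616% and 0.0308% of genes were called, and none of the 10 had an unadjusted p under 0.05. In the interactions of htz1 or swr1 with xrn1 or upf1, 0% of genes and none of the 10 passed, and none of the 10 had an unadjusted p under 0.05.

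The correlation among the 10 genes was much lower without 1 library. Across the 15 libraries, Pearson's r of log2(RPKM + 1) had a median of 0.77 over the 45 pairs of genes, from 0.26 to 0.97. Across the 14 libraries without prp43 DAmP the median was 0.17, and 16 of the 45 pairs were below 0. Without it, ERG11 with ERG25 was at 0.88, ERG25 with ERG26 at 0.83 and ERG6 with ERG2 at 0.83. With upf1 2 left out as well (13 libraries), the values were 0.56, 0.49 and 0.83. ERG6 with ERG5 (-0.87) and ERG6 with ERG27 (-0.85) were opposed. These are descriptions across libraries that share genotypes and differ in depth.

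Of the 5922 genes averaging 10 RPKM or more, those most like the mean of the 10 across the 15 libraries were ERG9 (r = 0.91), EMA19 (0.89), SAM2 (0.89), ERG13 (0.88), ERG10 (0.88), PMT3 (0.87), ERG1 (0.86) and YPR145C-A (0.86). Without prp43 DAmP, their r lay between 0.24 (SAM2) and 0.68 (ERG1), and the genes most like the mean were COS6 and CPS1 (0.84 each). Of the upstream neighbours of the 10 genes, 8 had values, and in prp43 DAmP 2 were above both wild-type libraries, 4 between them and 2 below both. Their ratio to the wild-type mean ran from 0.698 to 1.39, and both ends rest on genes at low levels. MIN4 was at 1.57, MEI4 at 3.54 and YHR007C-A at 4.12 RPKM in prp43 DAmP. MIM2, upstream of ERG27, had 48.3 RPKM in prp43 DAmP, against 47.9 RPKM in prp43 DAmP htz1 and 36.7 and 39.1 RPKM in the wild type. MEI4, upstream of ERG28, had 3.54 RPKM in prp43 DAmP, against 0.934 RPKM in prp43 DAmP htz1 and 3.20 and 1.88 RPKM in the wild type. These were the 2 above both wild-type libraries. SPT8, which is divergent from ERG3, had 25.1 RPKM in prp43 DAmP, against 20.9 RPKM in prp43 DAmP htz1 and 30.6 and 20.3 RPKM in the wild type. PRM1, divergent from ERG24, had 8.04 RPKM in prp43 DAmP, against 14.1 RPKM in prp43 DAmP htz1 and 15.4 and 6.27 RPKM in the wild type. EFM5, upstream of ERG26, had 79.4 RPKM in prp43 DAmP, against 79.7 RPKM in prp43 DAmP htz1 and 103 and 87.8 RPKM in the wild type.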

How the data were processed

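The authors deposited RPKM values (reads scaled for gene length and library size) for 6662 entries in a table of the whole series. STAR 2.4.0, CASAVA and sacCer3 are named in the submitters' processing notes, while the counter, the annotation and the use of strand are each not given in the sources used here. Per the labels, RNA extracted with hot phenol was treated with DNase before an Illumina TruSeq kit made the libraries. Of the entries, 3 without a distinct name and 1 column that matched no sample were left out. Multiplying RPKM by gene length gave whole reads, within 0.1 read, for 100% of 400 low values in each library, against 17.2 to 20.4% at other totals.

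Differences in log2(RPKM + 1), a scale that compresses changes at low levels, were fitted by limma 3.58.1 (R 4.3.3) for 6495 genes whose mean reached 1 RPKM. P-values were adjusted by Benjamini-Hochberg over all of them, and a call is an adjusted p under 0.05. Averaged comparisons were fitted to their own libraries with background as a term. Comparisons with the wild type and interactions came from 1 mean per genotype over all 15 libraries (4 residual degrees of freedom). A ± gives the SE, or the SD where so named. Identifiers were matched to the R64 reference: 5910 matched and 749 did not. The procedure was also tested on simulated data, on which no result above rests. Counts there were drawn independently for each library with the same dispersion for all genes, without the differences in mating type and ribosomal DNA. All 10 genes, called members of the other lists (up to 6 a list), UPC2, ECM22, NCP1 and ERG4, and the 8 genes most like the mean were named. The members and lists were chosen with earlier results of these data known. Alternatives were other pseudocounts and filters, scaling, an untrended prior, a replicate block, an additive model, voom on the recovered reads, and leaving out libraries.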

Additional observations from a re-analysis of the deposited data

Results flagged for a closer look

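The change of ERG3, the sterol desaturase, with the prp43 DAmP allele differed between strains without and with HTZ1: prp43 DAmP htz1 had 310 RPKM, against 314 and 315 RPKM in htz1, and prp43 DAmP had 1498 RPKM, against 238 and 266 RPKM in the wild type. The interaction was -2.59 ± 0.35 (limma adjusted p = 0.0387), and each prp43 genotype had 1 library. Among the 10 late genes, ERG3 was the gene with the smallest adjusted p and ERG28 the one with the largest interaction, at -3.18. All 10 interactions were negative. The call of ERG3 was lost in 5 of 8 alternatives and in 7 of 13 fits with a single library left out.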

How the results depend on the processing

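The number of the 10 genes called was recomputed under each alternative. For xrn1 over 3 H2A.Z states (5 called), it was 3 in the additive model of all 15 libraries and 4 to 5 with single libraries left out. For prp43 DAmP against the wild type (7 called) it was 4 with no filter, 2 with the scaling and 2 to 8 with single libraries left out. For its interaction with htz1 (1 called) it was 0 with a pseudocount of 0.1, with no filter, with the scaling and without the libraries rich in ribosomal DNA, 2 with a pseudocount of 5, and 0 to 1 with single libraries left out. For upf1 (0 called) it was 1 with no filter, with the scaling and without the libraries rich in ribosomal DNA, and 0 to 1 with single libraries left out. With single libraries left out it was 0 to 6 for prp43 DAmP averaged over 2 HTZ1 states, 1 to 3 for xrn1 against the wild type and 0 to 2 for upf1 against the wild type. With limma voom on the recovered reads the number of the 10 called did not change in the 6 averaged comparisons, and 4737 genes were called in all for xrn1 and 1822 for upf1. The causes were not tested.

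For xrn1, 4 changes turned negative with the scaling, whose construction removes the shift of all genes: ERG24 (-0.94), ERG27 (-0.17), ERG28 (-0.84) and ERG3 (-0.35). ERG24 was also negative in the additive model (-0.0262) and with voom (-0.0443), and without the libraries rich in ribosomal DNA ERG11 (0.0584) and ERG25 (0.0404) were positive. With single libraries left out, ERG11 ran from -0.16 to 0.0092, ERG24 from -0.0265 to 0.0683, ERG25 from -0.15 to 0.0283 and ERG28 from -0.0613 to 0.30 for xrn1, ERG5 from -0.27 to 0.0405 for upf1, and ERG24 from -0.14 to 0.16 for htz1. None of these was called as deposited, ERG27 and ERG3 excepted.

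Differences between replicates 1 and 2 correlated at -0.27 for htz1 with xrn1, 0.13 for htz1 with upf1 and 0.19 for xrn1 with upf1. The wild type, numbered 1 and 3, was not among these pairs. These values do not show whether libraries of the same number share a batch. With the replicate number as a block, and the lone libraries, which carry no number, as a level of their own, 3 of the 10 were called for xrn1 (ERG6 and ERG2 were not, and ERG24 was at -0.0742) and 0 for upf1 (ERG5 at 0.17), htz1 and htz1 against swr1. For xrn1 against the wild type the block gave 1, and for the interaction of htz1 with prp43 DAmP 0 (ERG3 at -2.67). It gave 0 for upf1 and htz1 against the wild type and for the interactions of swr1 with xrn1 and upf1. No paired analysis was possible for swr1 or prp43 DAmP averaged, for either against the wild type, or for the interactions of htz1 with xrn1 and upf1, because there the level of the lone libraries cannot be separated from the groups. At least 135 reads stood behind each value of the 10 genes, and each prp43 genotype had 1 library.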
